A study of Arabidopsis thaliana with 6 samples.

Results

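The hdip1/2/3 triple mutant of Arabidopsis thaliana was compared with the wild type, gene by gene, for the functions of the genes whose transcripts were higher or lower in the mutant. A gene was a member of the comparison when its mean adjusted count was at least 10 in hdip1/2/3 or in wild type, which 19837 of the 32548 genes in the table met. The adjusted count is the number of RNA-seq reads on a gene after the authors had brought the libraries to a common size. The study examined subunits of a histone deacetylase complex by sequencing RNA from 3 genotypes, with 2 libraries each. The hdip1/2/3 plants carried hdip1-/-, hdip2-/- and hdip3-/- mutations made by CRISPR-Cas9, where the mutation in HDIP2 had been introduced into hdip1/3 plants. The hda19 plants carried a T-DNA insertion in HDA19, and the wild type was Col-0. All plants were seedlings of 20 days, grown on MS plates and soil under long days, and the labels name no treatment. The labels give neither the number of plants in a library nor the number of independent hdip1/2/3 lines, so P values measure the spread between these libraries only.

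Histone deacetylases of the RPD3 class remove acetyl groups from the tails of histones, and genes with deacetylated histones are as a rule less transcribed. HDA19 is such an enzyme, and it acts within SIN3-type complexes together with scaffold and histone-binding subunits. HDIP1, HDIP2 and HDIP3 are related plant proteins, studied here as partners of HDA19. In Arabidopsis, plants without HDA19 are known for altered development, for defense genes that are expressed without infection and for altered responses to abscisic acid, the hormone of drought and seed dormancy.

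Between 43906641 and 48407739 reads on genes were recovered per library, and the 10 most abundant genes held between 7.05% and 9.80% of the adjusted counts. The transcripts of the mutated genes were present in the mutant libraries. HDIP1 (AT1G69360, chr1:26072284-26076374 of TAIR10.1) had 583 and 479 adjusted counts in hdip1/2/3, against 522 and 379 in wild type, HDIP2 (AT1G26620, chr1:9195512-9199671) had 399.6 and 379.6 in hdip1/2/3, against 378 and 239 in wild type, and HDIP3 (AT1G13940, chr1:4762479-4766852) had 744 and 591 in hdip1/2/3, against 718 and 550.2 in wild type. The mutant and wild-type libraries overlapped for HDIP1 and HDIP3 and did not overlap for HDIP2, and none of the 3 genes was called (limma adjusted P = 0.438, 0.31 and 0.826). Since CRISPR edits can leave transcript levels intact, the labels could not be checked in this way. HDA19 itself (AT4G38130) had 4893 and 5206 in hdip1/2/3, against 4298 and 4416 in wild type, and was not called (0.21 ± 0.21, limma adjusted P = 0.517). The tissue, labelled as seedlings, was checked with marker genes. The 9 mesophyll markers summed to 3001110 and 3688940 adjusted counts in hdip1/2/3, against 2444130 and 3011590 in wild type. The 13 root markers summed to 22.0 and 43.4 in hdip1/2/3, against 44.2 and 28.3 in wild type, 8 of them stayed under 10 in every library, and EXPA7 and MRN1 were at 0 throughout. Root markers were thus nearly absent from these seedling libraries. The 6 guard cell markers summed to 2175 and 1827 in hdip1/2/3, against 3401 and 2906 in wild type.

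Differences between the genotypes were expressed as log2 fold changes of hdip1/2/3 over wild type on the log2(adjusted count + 1) scale, on which changes of weakly expressed genes come out too small. A gene was called higher or lower when its limma P value, adjusted over all 23685 genes tested, was under 0.05. Of the members, 1024 were called higher and 655 lower in hdip1/2/3, and of all genes tested 4.35% were called higher and 2.82% lower. The gene groups below were counted over members. Of all members 5.16% were called higher and 3.30% lower, and these shares are the background for the counts of each group in this fit. The median log2 fold change was 1.17 among the members called higher and -0.89 among those called lower, and the libraries of the 2 genotypes did not overlap for any of them. Nonoverlap by itself was frequent, at 30.7% of all genes tested in the higher and 31.3% in the lower direction. The rule of the study for its DEGs takes the unadjusted P value under 0.05 together with more than a 1-unit log2 change. With that rule applied to the limma P values of this fit, 1011 members were higher and 798 lower (5.10% and 4.02% of the members). The study took its P values from edgeR, so these are not its own counts. Of all genes tested, 4.92% were higher and 4.07% lower by the same rule. The calls rested on the spread estimated from all 6 libraries. When any 1 of the 6 libraries was left out, or when hda19 was left out of the fit, 0 members passed the adjusted threshold in either direction by limma-trend, while between 1740 and 3436 were higher and between 1367 and 3182 lower at an unadjusted P value under 0.05. In limma-voom on the recovered reads of all 6 libraries, 1199 members were called higher and 942 lower, including 990 and 644 of those called above. With 2 libraries per genotype, an exact permutation test of a single gene cannot give a P value below 0.33.

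The falls were examined against transcript length, taken as the longest annotated transcript of each gene. Members called lower had a median transcript of 2721 nt and members called higher one of 1376.5 nt, where the median over all members was 1726 nt. In 5 length classes of about equal size, from the shortest (29 to 1119 nt) to the longest (2510 to 16593 nt), the median log2 fold change was 0.36, 0.17, 0.03, -0.12 and -0.46. The numbers of members called lower were 22, 48, 69, 132 and 384 in the same order, and the numbers called higher were 311, 315, 216, 141 and 41. The log2 fold change fell by 0.35 for each doubling of the transcript length.

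This trend was not the same in the libraries of a genotype. Each library was set against the mean of all 6, and its deviation followed transcript length with a slope of -0.13 and -0.32 per doubling in the hdip1/2/3 libraries, against 0.22 and 0.02 in the wild-type libraries. The hda19 libraries had slopes of 0.04 and 0.17. In the longest class, the median deviation was -0.14 and -0.43 log2 units in hdip1/2/3, against 0.32 and 0.01 in wild type. Both hdip1/2/3 libraries thus ran downwards with length, and of the wild-type libraries 1 ran upwards and the other was flat. Between single libraries, the slope was lowest for hdip1/2/3 replicate 2 against wild type replicate 1 (-0.54) and closest to 0 for hdip1/2/3 replicate 1 against wild type replicate 2 (-0.15). With hdip1/2/3 replicate 2 left out the slope was -0.25, and with wild type replicate 1 left out it was -0.24. Whether these trends arose in the plants, in the RNA or in the libraries was not tested.

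**Figure D1:**
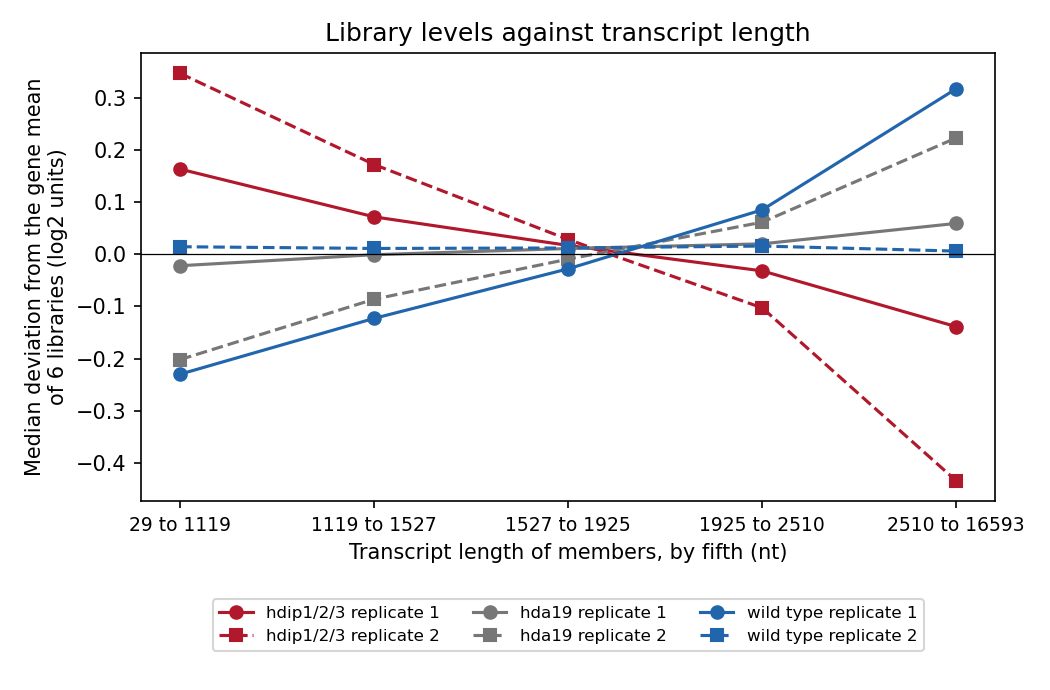
Median deviation of each library from the mean of the 6 libraries (log2 units, vertical axis) in 5 classes of members by transcript length (nt, horizontal axis), with 1 line per library. The hdip1/2/3 lines go down to -0.14 and -0.43 in the longest class, and the wild-type lines end at 0.32 and 0.01.

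The counts were therefore repeated after the trend of each library on transcript length had been removed. In that fit 1641 members were called higher and 923 lower (8.27% and 4.65% of the members). Of all genes tested, 6.97% were called higher and 3.99% lower in that fit. The numbers of members called lower became 152, 195, 173, 205 and 198 from the shortest to the longest class, and the numbers called higher became 259, 351, 358, 373 and 300. Of the members called with the values as deposited, 936 of the 1024 higher and 426 of the 655 lower were called in the same direction with the trend removed, and 0 were called in the opposite direction. The 229 members that were lower only before the removal had a median transcript of 3651 nt, a median log2 fold change of -0.79 as deposited and of -0.25 with the trend removed. The 426 members lower in both fits had a median transcript of 2219.5 nt, and their median log2 fold changes were -0.997 as deposited and -0.81 with the trend removed. The removal takes out any true change that follows length together with the rest, so neither fit can be preferred from these data alone. The counts of the gene groups below are given in both. For the counts with the trend removed, the background is 8.27% of members higher and 4.65% lower. Fits with the trend removed and a library left out, added after the values were seen, called between 111 (without wild type replicate 1) and 573 (without wild type replicate 2) members higher, and between 13 (without wild type replicate 1) and 275 (without hdip1/2/3 replicate 1) lower. In each of the 6 such fits, the same 103 members were called higher and the same 13 lower.

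**Figure D2:**
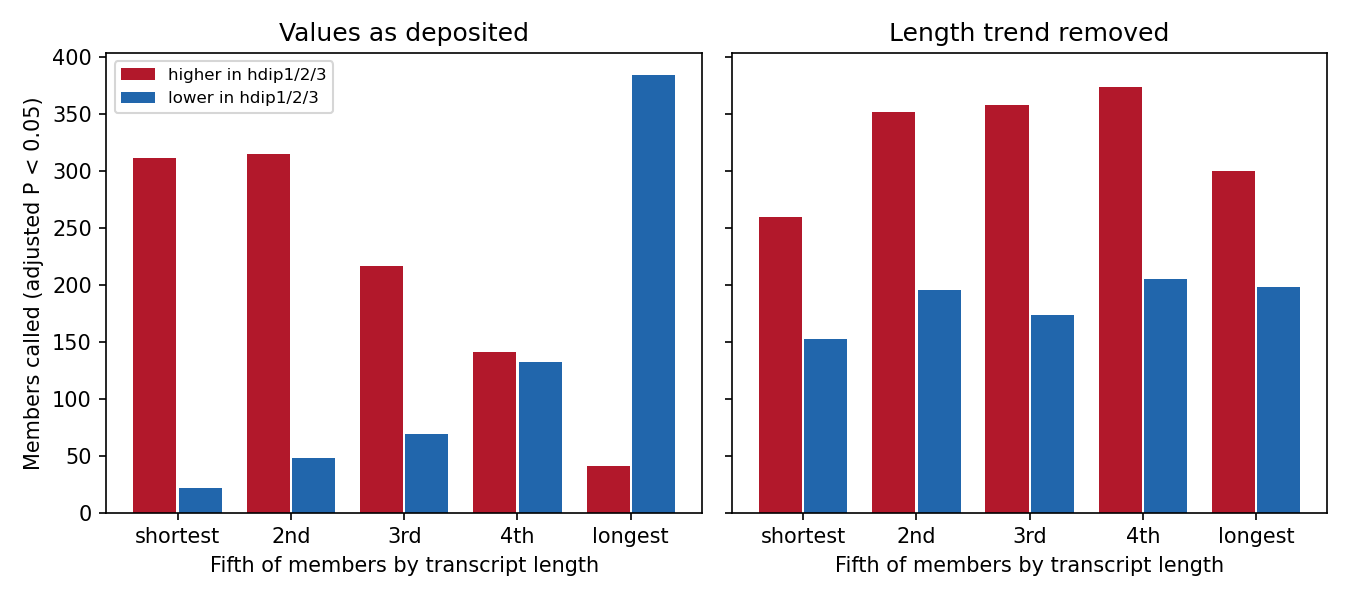
Number of members called higher or lower in hdip1/2/3 (vertical axis, limma adjusted P under 0.05) in the 5 classes of transcript length, with the values as deposited (left) and with the length trend of each library removed (right). As deposited, 384 of the 655 lower calls are in the longest class, and with the trend removed this class has 198 of 923.

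The largest rises and falls came in part from genes of unknown function. AT2G34655, an uncharacterized gene, had 6389 and 8001 adjusted counts in hdip1/2/3, against 413 and 627 in wild type. Both mutant libraries were far above both wild-type libraries (3.81 ± 0.20, limma adjusted P = 0.00121). AT2G32550, which encodes a protein related to the yeast cell differentiation factor Rcd1, had 778 and 988 in hdip1/2/3, against 18.1 and 47.5 in wild type (4.85 ± 0.41, limma adjusted P = 0.00453). The noncoding RNA AT1G67105 had 1130.4 and 1073 in hdip1/2/3, against 54.3 and 31.4 in wild type (4.70 ± 0.44, limma adjusted P = 0.00453). These genes were low in both wild-type libraries and high in both mutant libraries. Others of the 10 largest rises were nearly silent in wild type. AT2G01422, a noncoding RNA, had 128 and 177 recovered reads in hdip1/2/3, against 0 and 2 in wild type, a ratio of 167 with an exact 95% counting interval of 46.0 to 1389. PLS, the POLARIS peptide gene that acts in root growth and ethylene and auxin responses, had 21 and 16 reads in hdip1/2/3, against 0 and 0 in wild type, and was at least 6.82-fold higher by a floor of 3 reads per library. AT4G05540, which encodes a nucleoside triphosphate hydrolase, had 27 and 10 reads in hdip1/2/3, against 0 and 0 in wild type, at least 6.79-fold higher by the same floor. AT4G20000, a VQ motif protein gene, had 102 and 61.5 adjusted counts in hdip1/2/3, against 3.02 and 5.05 in wild type. AT1G63055, an uncharacterized gene, had 15 and 24 reads in hdip1/2/3, against 1 and 0 in wild type, a ratio of 42.8 (7.25 to 1734). AT1G18290 had 19 and 26 reads in hdip1/2/3, against 2 and 0 in wild type, a ratio of 24.7 (6.45 to 210.2). The intervals of these weakly expressed genes are wide. The last of the 10, ACS7, is described with ethylene. All 10 were also called with the length trend removed.

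The largest fall was that of AT3G01345, an uncharacterized gene at chr3:129138-130749. It had 8.79 and 14.5 adjusted counts in hdip1/2/3, against 6395 and 10162 in wild type (-9.35 ± 0.36, limma adjusted P = 0.00022). The gene was thus among the well expressed ones in wild type and close to absent in hdip1/2/3, and the hda19 libraries had 6.18 and 7.13. EXLB1, an expansin-like gene, had 46.6 and 37.4 in hdip1/2/3, against 909 and 1070.0 in wild type (-4.53 ± 0.38, limma adjusted P = 0.00453). The noncoding RNA AT3G06955 had 2.4 and 19.9 in hdip1/2/3, against 147 and 265 in wild type, with its 2 mutant libraries far apart. The remaining 7 of the 10 largest falls had low levels throughout. CHR34, AT1G52430, AT1G72490 and TSF had 0 reads in both mutant libraries, against 24 and 24, 45 and 12, 37 and 11, and 10 and 21 reads in wild type, so that they were at least 8.07, 9.57, 8.06 and 5.22-fold lower by the floor of 3 reads per library. TSF is a close relative of the flowering signal FT. CYP96A15, the midchain alkane hydroxylase of stem wax synthesis, had 2 and 0 reads in hdip1/2/3, against 50 and 29 in wild type, a ratio of 0.028 with an exact 95% counting interval of 0.0033 to 0.104. AT5G42610, annotated as a calcium uniporter, had 2 and 0 reads in hdip1/2/3, against 30 and 27 in wild type, a ratio of 0.039 (0.0046 to 0.146). PRR3, a clock-associated response regulator, had 8.52 and 0.12 adjusted counts in hdip1/2/3, against 66.4 and 42.5 in wild type. All 10 stayed called with the length trend removed. Among the members that were lower in every fit with the trend removed and a library left out were AT3G01345, EXLB1 and IMS2.

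In salicylic acid synthesis and response, the pathway of systemic immunity, 8 of 19 members were called higher in hdip1/2/3 and 0 lower, with a median log2 fold change of 0.81 (0.82 with the length trend removed, where 11 were higher and 0 lower). PR1, a pathogenesis-related protein and the usual marker of salicylic acid signalling, had 14470.1 and 11033 adjusted counts in hdip1/2/3, against 1979 and 2176 in wild type. Both mutant libraries were several times above both wild-type libraries (2.61 ± 0.16, limma adjusted P = 0.00121). BGL2, the beta-1,3-glucanase also known as PR2, had 12956 and 7819 in hdip1/2/3, against 2132 and 1893 in wild type (2.32 ± 0.24, limma adjusted P = 0.00544). NIMIN1, which binds the salicylic acid receptor NPR1, had 278 and 225 in hdip1/2/3, against 36.2 and 47.5 in wild type (2.56 ± 0.28, limma adjusted P = 0.00633). FMO1, which makes the mobile immune signal N-hydroxypipecolic acid, had 264 and 104 in hdip1/2/3, against 29.2 and 40.4 in wild type, with replicate 1 well above replicate 2 in the mutant (2.24 ± 0.44, limma adjusted P = 0.0326). In each of these genes the genotypes did not overlap. The other called members, named after their values were seen, were the transcription factors SARD1 (1.13) and CBP60G (1.03), PAD4 (0.95) and the salicylic acid hydroxylase DMR6 (0.71).

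WRKY transcription factors, many of which act in immunity, had 9 of 56 members higher and 0 lower, with a median of 0.48 (13 higher, 1 lower and 0.45 with the trend removed). WRKY51 had 383 and 356 in hdip1/2/3, against 113 and 62.8 in wild type (2.12 ± 0.29, limma adjusted P = 0.0117), and WRKY60 had 840.2 and 581 in hdip1/2/3, against 317 and 201 in wild type (1.46 ± 0.26, limma adjusted P = 0.0239). The mutant and wild-type libraries of both genes were apart. Among camalexin genes, which make the indole phytoalexin of Arabidopsis, 4 of 8 were higher and 1 lower in both fits. PAD3, the last enzyme of this pathway, had 494 and 399 in hdip1/2/3, against 117 and 116 in wild type (1.92 ± 0.22, limma adjusted P = 0.00707). CYP71A13 had 471 and 325 in hdip1/2/3, against 54.3 and 80.9 in wild type and its close copy CYP71A12 had 281 and 175 in hdip1/2/3, against 59.3 and 50.6 in wild type, between which reads could have been split. CYP71A27, a P450 gene of the same family, went the other way with 14 and 9.17 in hdip1/2/3, against 60.3 and 36.4 in wild type (-1.95 ± 0.47, limma adjusted P = 0.0497). Glutathione transferases had 7 of 32 members higher and 0 lower as deposited (median 0.43), and 6 higher and 2 lower with the trend removed (median 0.22). GSTF6 had 6876 and 5061 in hdip1/2/3, against 1776 and 1699 in wild type, and its neighbour and near copy GSTF7 had 5039.6 and 3571 in hdip1/2/3, against 1397 and 1071 in wild type. UGT76B1, which glucosylates salicylic acid and isoleucic acid, had 477 and 318 in hdip1/2/3, against 60.4 and 49.6 in wild type (2.81 ± 0.30, limma adjusted P = 0.00544).

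The counts of immune receptors depended on the length trend. Of 125 NLR and TIR receptors, which detect pathogen effectors inside the cell, 0 were higher and 2 lower as deposited, with a median of -0.48 and a median transcript of 3684 nt. With the trend removed, 10 were higher and 2 lower, and the median was 0.08. These are 8.00% and 1.60% of the receptors, against 8.27% and 4.65% of all members in that fit. The calls as deposited were AT1G72840 (126 and 95.2 in hdip1/2/3, against 267 and 251 in wild type) and AT1G62630 (799 and 543 in hdip1/2/3, against 1544 and 1124 in wild type), of which AT1G62630 remained called. Pattern receptors and co-receptors at the cell surface had 0 of 15 members called as deposited and 8 higher with the trend removed (medians 0.32 and 0.52). SOBIR1, a co-receptor of receptor-like proteins, had 5059 and 3598 in hdip1/2/3, against 2779.5 and 2614 in wild type, which did not overlap and missed the threshold as deposited (limma adjusted P = 0.0552, and 0.00687 with the trend removed). RBOHD, the NADPH oxidase of the immune oxidative burst, had 3478 and 3605 in hdip1/2/3, against 3773 and 3550.1 in wild type, and its log2 fold change of -0.05 became 0.47 with the trend removed. Receptor-like proteins had 3 of 46 members higher and 0 lower as deposited and 8 higher with the trend removed. RLP39 had 282 and 154 in hdip1/2/3, against 80.5 and 48.6 in wild type, and RLP41 had 1750.1 and 1120.1 in hdip1/2/3, against 806 and 631 in wild type. CRK41 had 1287 and 1342 in hdip1/2/3, against 686 and 645 in wild type (0.98 ± 0.16, limma adjusted P = 0.0204) and was the only 1 of 36 cysteine-rich receptor-like kinases that was called as deposited (2 higher with the trend removed).

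**Figure D3:**
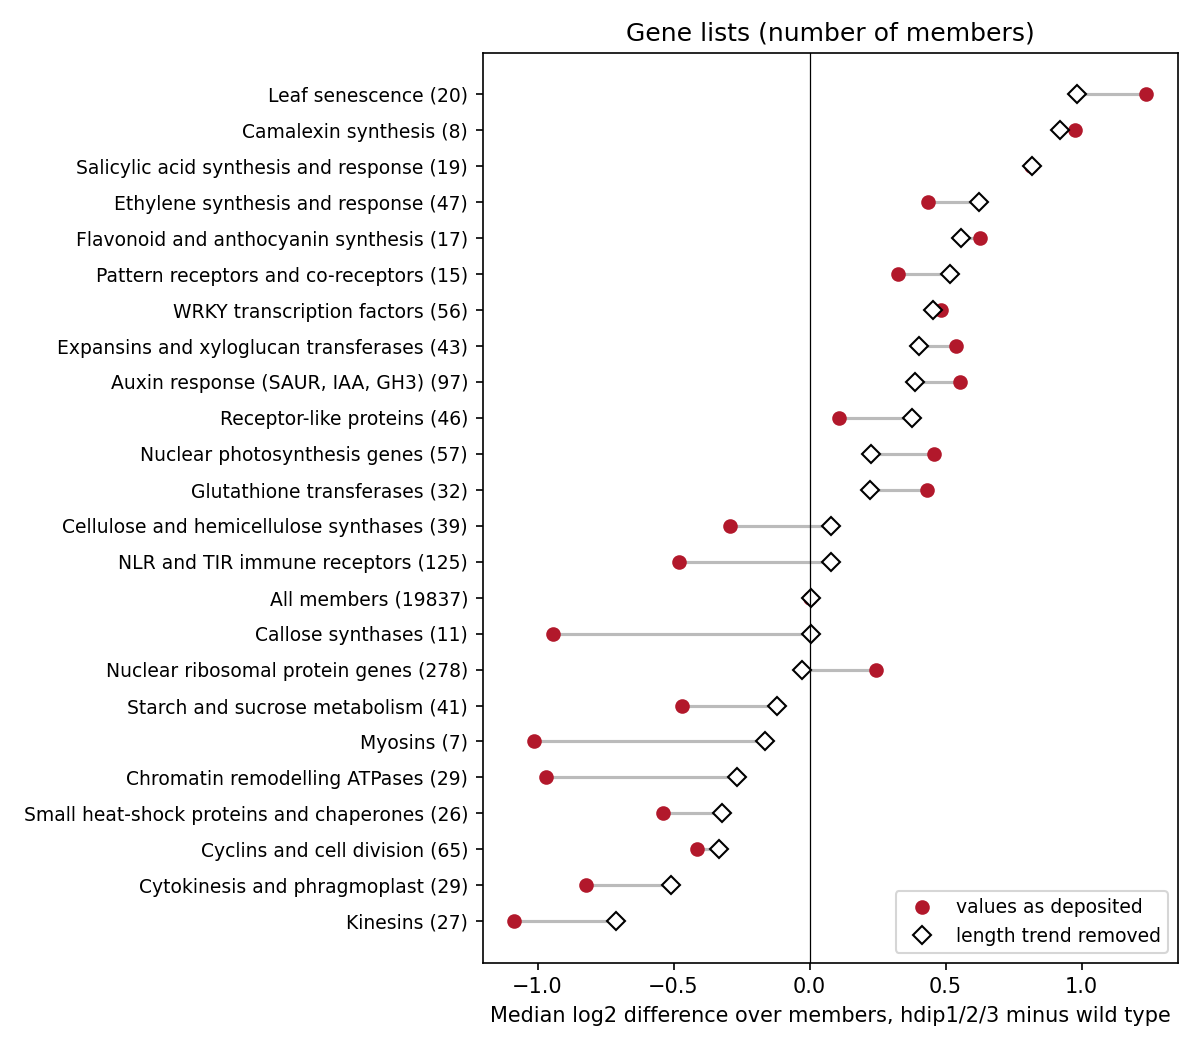
Median log2 fold change of hdip1/2/3 over wild type (horizontal axis) for 23 gene lists and for all members, with the number of members of each list in brackets. Filled points are the values as deposited and open diamonds those with the length trend removed. Callose synthases move to 0.01 from -0.94 as deposited, kinesins to -0.71 from -1.09, and salicylic acid genes stay at 0.82 against 0.81.

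The abscisic acid receptor genes PYL5, PYL4, PYL6, PYR1, PYL1 and RCAR3 were higher (PYR1, PYL1 and RCAR3 are named after their values were seen), and together with the kinase gene SNRK2.7 they made up all calls among the core genes of this hormone. Of 26 core genes of abscisic acid signalling (receptors, PP2C phosphatases and SnRK2 kinases) 7 were higher and 0 lower as deposited (8 and 1 with the trend removed). The median of these genes was 0.06 and therefore near that of all members. PYL5 had 1644 and 1566 adjusted counts in hdip1/2/3, against 228 and 359 in wild type (2.48 ± 0.21, limma adjusted P = 0.00453). PYL4 had 7492 and 7578 in hdip1/2/3, against 2659 and 3449.9 in wild type (1.31 ± 0.14, limma adjusted P = 0.00632), and PYL6 had 312 and 280.3 in hdip1/2/3, against 84.5 and 111 in wild type (1.60 ± 0.30, limma adjusted P = 0.0282). The genotypes did not overlap in any of these receptors, and replicates differed little in the mutant. The kinase SNRK2.7 had 108 and 124 in hdip1/2/3, against 39.2 and 23.3 in wild type (1.90 ± 0.35, limma adjusted P = 0.0277). Of 22 genes that respond to abscisic acid, drought and cold, 0 were higher and 1 was lower as deposited (1 and 2 with the trend removed), the lower one as deposited being LTI78 (also RD29A), with 362 and 152 in hdip1/2/3, against 1020.0 and 823 in wild type (-1.96 ± 0.38, limma adjusted P = 0.0314). The annotation's own terms for these responses held more higher calls than this list. Response to abscisic acid stimulus had 9 of 68 members higher and 4 lower (13 and 5 with the trend removed). Response to water deprivation had 8 of 72 higher and 2 lower (11 and 4 with the trend removed), and response to cold 9 of 119 and 6 (10 and 6). For response to cold the share higher was 7.56% as deposited, against 5.04% of all members with a term. With the trend removed it was 8.40%, against 9.12%, and therefore not above that background. Of 7 seed maturation members 0 were called as deposited and 2 were lower with the trend removed.

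Jasmonate genes, which act against insects and necrotrophs, went both ways, with 5 of 35 higher and 3 lower (8 and 3 with the trend removed). PDF1.4 had 178 and 174 in hdip1/2/3, against 22.1 and 34.4 in wild type (2.63 ± 0.30, limma adjusted P = 0.00725), whereas PDF1.3, another defensin gene, had 19.3 and 7.06 in hdip1/2/3, against 136 and 111 in wild type (-3.27 ± 0.54, limma adjusted P = 0.0212). VSP1, a storage protein induced by jasmonate, had 68.4 and 62.2 in hdip1/2/3, against 285 and 512 in wild type (-2.53 ± 0.60, limma adjusted P = 0.0478), and JAZ7, a repressor of jasmonate signalling, had 48.9 and 47.5 in hdip1/2/3, against 8.05 and 12.1 in wild type (2.17 ± 0.49, limma adjusted P = 0.0434). Ethylene synthesis and response, a list drawn up after the values were seen, had 11 of 47 members higher and 1 lower (20 and 1 with the trend removed). ACS8, an ACC synthase of the step that limits ethylene synthesis, had 125 and 119.8 in hdip1/2/3, against 20.1 and 15.2 in wild type (2.74 ± 0.35, limma adjusted P = 0.00963). ACS7 had 63.6 and 19.9 in hdip1/2/3, against 4.02 and 0.00547 in wild type, and its mutant libraries lay far apart. The repressor gene ERF11 had 165 and 157 in hdip1/2/3, against 31.2 and 26.3 in wild type (2.45 ± 0.30, limma adjusted P = 0.00846). In glucosinolate synthesis, which makes sulfur-containing defense compounds, 1 of 25 members was higher and 2 were lower (3 and 3 with the trend removed). IMS2, also known as MAM3, which elongates methionine side chains, had 315 and 281 in hdip1/2/3, against 1277 and 1548 in wild type (-2.24 ± 0.18, limma adjusted P = 0.00453), and the regulator MYB29 had 1314 and 1322 in hdip1/2/3, against 2403 and 2410.2 in wild type (-0.87 ± 0.11, limma adjusted P = 0.0103). CYP79F2, a P450 gene of aliphatic glucosinolate synthesis, was the higher one with 753 and 737 in hdip1/2/3, against 486 and 446 in wild type (0.68 ± 0.14, limma adjusted P = 0.0359).

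Of 97 auxin response genes (SAUR, Aux/IAA and GH3), 19 were called higher and 0 lower as deposited, with a median of 0.55 and a median transcript of 940 nt. With the trend removed, 21 were higher and 0 lower, and the median was 0.39. The SAUR gene AT1G16510 had 484 and 489 adjusted counts in hdip1/2/3, against 83.5 and 114 in wild type (2.31 ± 0.26, limma adjusted P = 0.00682). SAUR28 had 172 and 222 in hdip1/2/3, against 36.2 and 48.5 in wild type, and IAA29, an early repressor of auxin signalling, had 307 and 467 in hdip1/2/3, against 63.4 and 149 in wild type. Replicate 2 was higher than replicate 1 in both genotypes for these genes, and the genotypes did not overlap. YUC8, a flavin monooxygenase that makes auxin, had 114 and 116 in hdip1/2/3, against 12.1 and 22.2 in wild type (2.74 ± 0.38, limma adjusted P = 0.0117) and was the only 1 of 22 auxin transport and synthesis members called as deposited (5 higher and 0 lower with the trend removed). SAUR genes form clusters of near copies, and reads of these could have been assigned to one another.

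Of 43 expansins and xyloglucan transferases, which loosen and remodel cell walls during growth, 10 were higher and 1 was lower (12 and 1 with the trend removed), the lower one being EXLB1. XTH19 had 479.7 and 353 in hdip1/2/3, against 64.4 and 90 in wild type (2.42 ± 0.25, limma adjusted P = 0.00544). TCH4, which is induced by touch, had 4267 and 1516 in hdip1/2/3, against 449 and 645 in wild type, where replicate 1 was far above replicate 2 in the mutant (2.24 ± 0.42, limma adjusted P = 0.0293). Arabinogalactan proteins, glycoproteins of the wall and membrane, had 7 of 39 members higher and 2 lower (8 and 3 with the trend removed). AGP16 had 8955 and 9271 in hdip1/2/3, against 2520.0 and 3114 in wild type (1.70 ± 0.14, limma adjusted P = 0.00453), and FLA10 had 143 and 103 in hdip1/2/3, against 284 and 291 in wild type (-1.24 ± 0.25, limma adjusted P = 0.0356). Pectin enzymes and their inhibitors were called in equal numbers, 7 higher and 7 lower of 99 (12 and 11 with the trend removed). Of the brassinosteroid and gibberellin genes, 2 of 25 were higher and 0 lower as deposited (5 and 1 with the trend removed). The called genes as deposited were the P450 genes of brassinosteroid synthesis ROT3 (407 and 449 in hdip1/2/3, against 215 and 141 in wild type) and BR6OX2 (1552 and 1586 in hdip1/2/3, against 864 and 759.6 in wild type).

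Leaf senescence genes had a median of 1.24 as deposited and 0.98 with the trend removed, with 8 of 20 members higher and 1 lower as deposited (7 and 1 with the trend removed). SAG29, a sugar transporter of the SWEET family, had 892 and 1355 in hdip1/2/3, against 152 and 232 in wild type (2.54 ± 0.27, limma adjusted P = 0.00544). SAG21, a small mitochondrial LEA-type protein, had 2194 and 2257 in hdip1/2/3, against 436 and 641 in wild type (2.07 ± 0.19, limma adjusted P = 0.00453), and SAG13 had 3023 and 1831 in hdip1/2/3, against 599.6 and 517 in wild type (2.08 ± 0.23, limma adjusted P = 0.00625). NYC1, the chlorophyll b reductase that starts chlorophyll breakdown, was the lower one (-0.55, named after its value was seen). In flavonoid synthesis, 4 of 17 members were higher and 1 lower (4 and 2 with the trend removed). DFR had 1874 and 1721 in hdip1/2/3, against 511 and 687 in wild type (1.60 ± 0.18, limma adjusted P = 0.00691) and LDOX had 1863 and 1813 in hdip1/2/3, against 597 and 759 in wild type (1.45 ± 0.17, limma adjusted P = 0.00725), both enzymes on the way to anthocyanins. FLS1, which makes flavonols, had 1810.1 and 1512 in hdip1/2/3, against 4382 and 4216 in wild type (-1.38 ± 0.22, limma adjusted P = 0.0182). The genotypes did not overlap in any of the 3 genes. Lipid-transfer proteins had 3 of 13 members higher and 0 lower (5 and 1 with the trend removed), among them EARLI1 (2.18 ± 0.30, limma adjusted P = 0.0116).

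**Figure D4:**
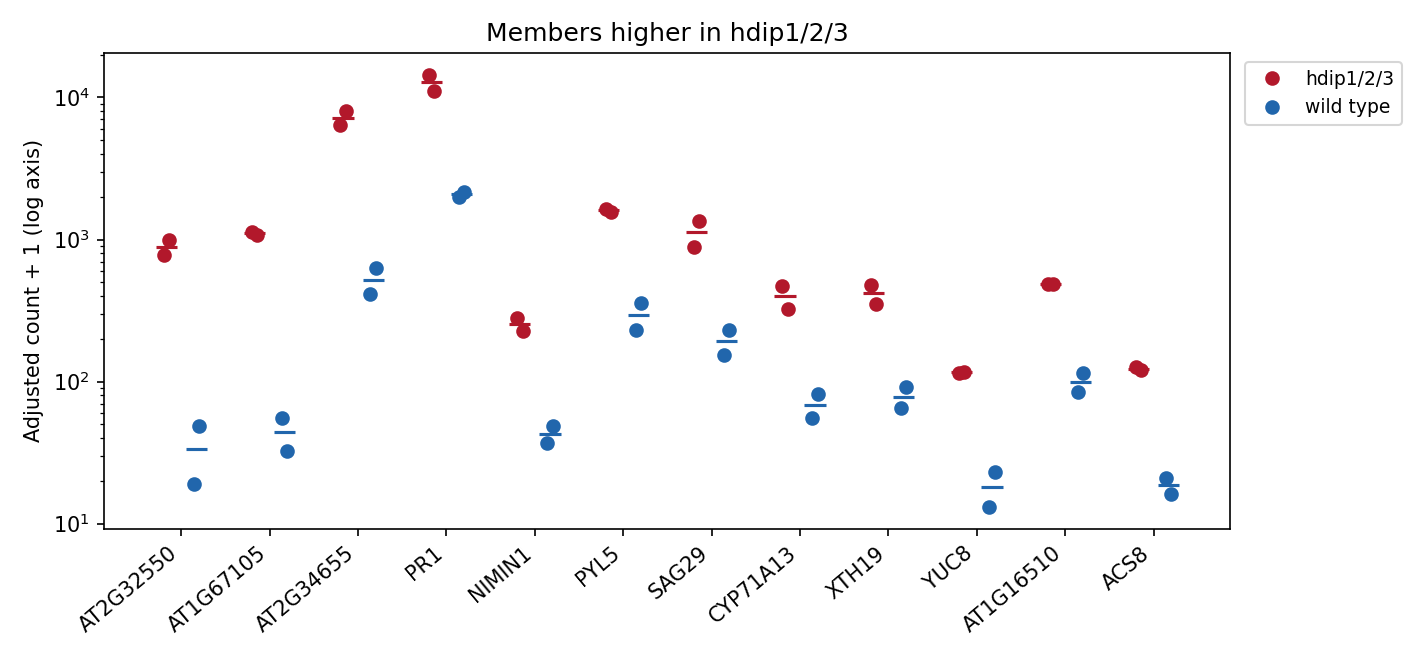
Adjusted counts + 1 (vertical axis, log scale) of 12 members called higher in hdip1/2/3, chosen after their values were seen. Each point is a library and each short line the mean of the 2 libraries of a genotype. In none of the 12 genes do the hdip1/2/3 and wild-type libraries overlap.

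Falls were also counted among genes of mitosis and cytokinesis. Of 27 kinesins, the motor proteins that move along microtubules, 0 were higher and 7 lower as deposited, and 0 were higher and 10 lower with the trend removed, with medians of -1.09 and -0.71. The median kinesin transcript had 3408 nt. POK2, which guides the phragmoplast, the array that builds the new wall, had 203 and 109 adjusted counts in hdip1/2/3, against 1070.3 and 393 in wild type. Wild type replicate 1 was well above replicate 2, and the genotypes did not overlap (-2.12 ± 0.51, limma adjusted P = 0.0489). With the trend removed, the log2 fold change of this transcript of 8663 nt was -0.96 and still called. The kinesin AT1G72250 had 199 and 110.2 in hdip1/2/3, against 634 and 442 in wild type (-1.83 ± 0.31, limma adjusted P = 0.0216), and AT2G22610 had 119 and 77.2 in hdip1/2/3, against 365 and 237 in wild type (-1.61 ± 0.30, limma adjusted P = 0.0295). HIK, a kinesin that starts a kinase cascade in cytokinesis, had 297 and 151 in hdip1/2/3, against 776 and 494 in wild type (-1.54 ± 0.35, limma adjusted P = 0.0437). For all 3, replicate 1 exceeded replicate 2 in both genotypes, and every wild-type library exceeded every mutant library. The list of cytokinesis and phragmoplast genes, drawn up after the values were seen and in part the same genes, had 10 of 29 lower and 0 higher (10 lower and 1 higher with the trend removed, medians -0.82 and -0.51). Cyclins and cell division genes had 2 of 65 higher and 3 lower (3 and 6 with the trend removed), with medians of -0.41 and -0.33. CYCB1;1, a mitotic cyclin gene, had 104 and 83.8 in hdip1/2/3, against 201 and 192 in wild type (-1.07 ± 0.23, limma adjusted P = 0.0411), and CYC1BAT, also a B-type cyclin gene, had 329.8 and 226 in hdip1/2/3, against 728 and 511 in wild type (-1.16 ± 0.25, limma adjusted P = 0.0407). CYCD3;3, which promotes the entry into the cycle, had 1038 and 1286 in hdip1/2/3, against 534 and 666 in wild type (0.95 ± 0.17, limma adjusted P = 0.0252). Histones, many of whose transcripts peak in S phase, had 1 of 40 members higher and 0 lower in either fit. The higher one was HIS1-3 (AT2G18050). In RNA from many cells at once, as here, fewer dividing cells and less RNA per dividing cell cannot be told apart. Of the 6 guard cell markers, only SPCH, which starts the divisions of the stomatal lineage, was called. It was lower with 199 and 164 in hdip1/2/3, against 380.3 and 338 in wild type (-0.99 ± 0.20, limma adjusted P = 0.0355). In the lower direction 5 of the 6 did not overlap, where 31.3% of all genes tested did not overlap in that direction.

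Genes of G2 and M phase carry in plants a promoter element, the mitosis-specific activator, that MYB3R proteins bind and whose core is AACGG. The windows from 250 bases before to 50 bases after the annotated start were read from the TAIR10.1 genome of RefSeq for 19836 members and searched on both strands. The core was in 55.6% of 27 kinesin windows, in 62.1% of 29 cytokinesis windows and in 41.5% of 65 cyclin and cell division windows, against 26.2% of all member windows. In all, 4 motifs were searched in 7 lists and in the members higher or lower in both fits. The W box of WRKY proteins (TTGACC or TTGACT) was in 26.3% of 19 salicylic acid windows and 35.7% of 56 WRKY windows, against 32.5% of all, the TGA element (TGACG) in 26.3% of the salicylic acid windows, against 23.7% of all, and the G box (CACGTG) in 19.2% of 26 abscisic acid windows, against 8.75% of all. Other combinations were as high, since the G box was in 22.2% of the kinesin windows and the AACGG core in 38.5% of the abscisic acid windows. In the 936 windows of members higher in both fits, the W box was in 39.5% and the AACGG core in 21.7%. The G box was in 9.08% of them and the TGA element in 25.8%. In the 426 windows of members lower in both fits, the W box was in 28.4% and the AACGG core in 32.4%. The G box was in 13.4% of these and the TGA element in 25.1%. None of these shares was tested. A match is a description of the letters and not a binding site. The windows of POK2, AT1G72250 and AT2G22610, kinesin genes that were lower in both fits, were chosen after the values were seen and are shown because they hold the core. The core is in capitals in either orientation. The windows lie at chr3:6577474-6577773, chr1:27192490-27192789 and chr2:9599170-9599469, all on the plus strand of TAIR10.1.
POK2: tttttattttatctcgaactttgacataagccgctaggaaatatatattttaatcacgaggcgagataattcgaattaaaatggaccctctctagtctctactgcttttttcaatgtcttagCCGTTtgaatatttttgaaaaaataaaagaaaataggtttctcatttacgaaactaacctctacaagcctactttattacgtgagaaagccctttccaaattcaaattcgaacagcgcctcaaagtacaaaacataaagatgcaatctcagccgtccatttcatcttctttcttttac
AT1G72250: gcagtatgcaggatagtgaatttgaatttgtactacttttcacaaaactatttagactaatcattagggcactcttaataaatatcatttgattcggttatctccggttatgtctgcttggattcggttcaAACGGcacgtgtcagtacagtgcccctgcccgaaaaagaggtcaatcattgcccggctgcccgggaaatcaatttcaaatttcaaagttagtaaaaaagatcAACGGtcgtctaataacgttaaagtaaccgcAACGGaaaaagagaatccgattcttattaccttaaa
AT2G22610: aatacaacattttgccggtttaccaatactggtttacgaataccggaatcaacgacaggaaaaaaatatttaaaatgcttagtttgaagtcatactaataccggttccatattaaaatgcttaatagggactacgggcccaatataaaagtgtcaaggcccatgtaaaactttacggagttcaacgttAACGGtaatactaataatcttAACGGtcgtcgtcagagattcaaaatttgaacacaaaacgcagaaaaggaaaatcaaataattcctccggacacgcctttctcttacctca

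The window of POK2 held the core once, as its reverse complement, and those of AT1G72250 and AT2G22610 held it more than once.

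Starch and sucrose metabolism, a list drawn up after the values were seen, had 0 of 41 members higher and 10 lower, and the same 10 were lower with the trend removed (medians -0.47 and -0.12). PWD, which phosphorylates starch at night so that it can be broken down, had 1023 and 914 adjusted counts in hdip1/2/3, against 4029 and 2472 in wild type (-1.71 ± 0.22, limma adjusted P = 0.00922). SS4, the starch synthase that starts granules, had 1304 and 802 in hdip1/2/3, against 4543 and 2329 in wild type (-1.67 ± 0.33, limma adjusted P = 0.0326). The sucrose synthase gene SUS4 had 74 and 91.3 in hdip1/2/3, against 244 and 259.9 in wild type (-1.61 ± 0.28, limma adjusted P = 0.0243). Wild type replicate 1 was the highest library for both PWD and SS4, and no mutant library of the 3 genes reached a wild-type one. In cuticular wax synthesis, also listed after the values were seen, 2 of 26 members were higher and 4 lower (3 and 5 with the trend removed). WSD1, the wax ester synthase, had 76.1 and 86.9 in hdip1/2/3, against 753 and 789 in wild type (-3.23 ± 0.39, limma adjusted P = 0.00824), and CER1, which makes alkanes, had 1159.8 and 1133 in hdip1/2/3, against 3877 and 4370.3 in wild type (-1.84 ± 0.19, limma adjusted P = 0.00544). The replicates of each genotype were close to each other for both genes. The list of small heat-shock proteins and chaperones (median transcript 2502.5 nt) had 0 of 26 members higher and 5 lower in either fit. Of these, 4 were lower in both. Called as deposited were HSP93-III, HSP60-2, Hsp70-15 and HSP70, which are not small heat-shock proteins. HSP70 had 1665 and 1286 in hdip1/2/3, against 2700.0 and 2526 in wild type (-0.84 ± 0.16, limma adjusted P = 0.0284). Of 27 members annotated as HSP20-like chaperones, 1 was higher and 0 lower (1 and 3 with the trend removed).

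**Figure D5:**
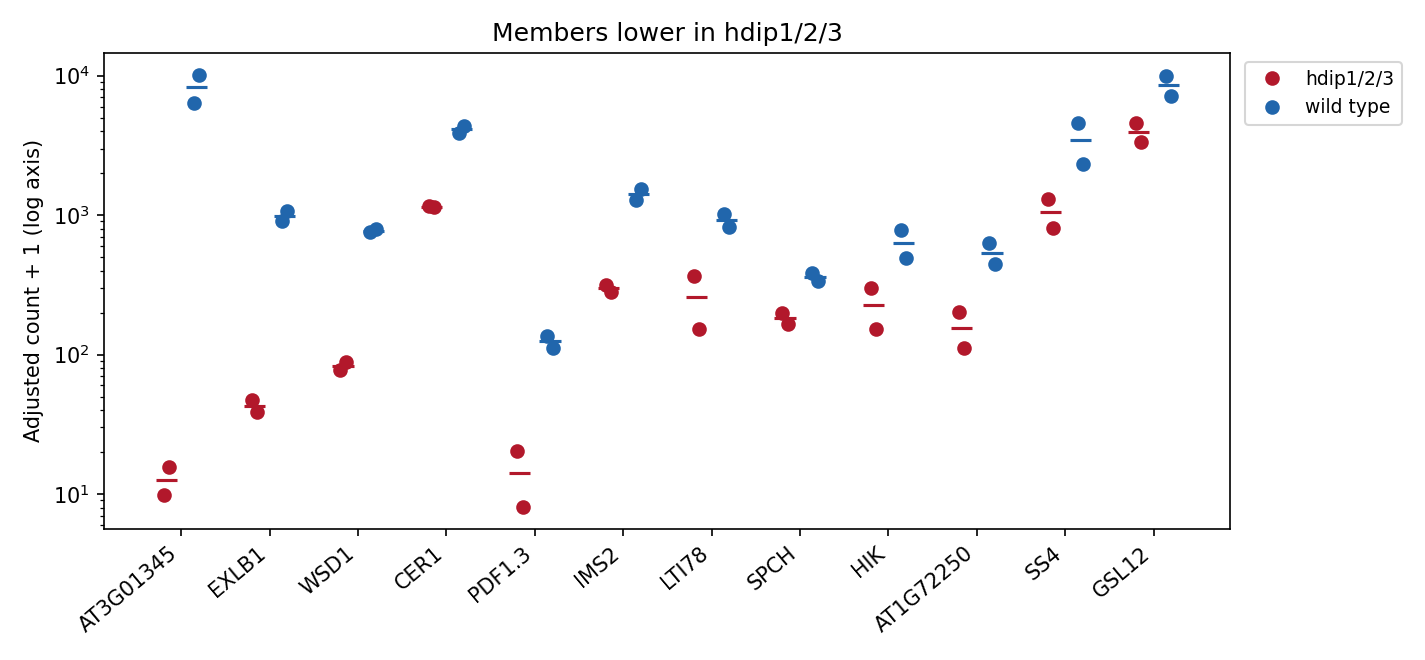
Adjusted counts + 1 (vertical axis, log scale) of 12 members called lower in hdip1/2/3, chosen after their values were seen. Each point is a library and each short line the mean of the 2 libraries of a genotype. GSL12 was no longer called once the length trend had been removed, and the other 11 were.

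The calls of several families with long transcripts depended on the length trend. Callose synthases, which lay down the wall polymer of cell plates and plasmodesmata, had 5 of 11 members lower and 0 higher as deposited, and 0 lower and 1 higher with the trend removed, with medians of -0.94 and 0.01 and a median transcript of 6346 nt. GSL12 had 4555 and 3354 adjusted counts in hdip1/2/3, against 9957 and 7099 in wild type (-1.10 ± 0.20, limma adjusted P = 0.0272), which became -0.17 (limma adjusted P = 0.39) with the trend removed. GSL8 had 2904 and 2177 in hdip1/2/3, against 5721 and 3986 in wild type, and its log2 fold change of -0.93 became 0.01. Similar values were found for GSL1 (-0.79 and 0.12), for NUP155 of the nuclear pore (-0.62 and 0.16) and for KAK, a HECT-type ubiquitin ligase of trichome growth (-0.68 and 0.33). These 4 genes were called lower as deposited and had a fold change of the other sign, with no call, once the trend was removed. Cellulose and hemicellulose synthases had 9 of 39 lower and 0 higher as deposited, and 3 lower and 3 higher with the trend removed (medians -0.29 and 0.08). CSLG1 remained lower in both, with 54.3 and 58.7 in hdip1/2/3, against 165 and 211 in wild type. Myosins had 1 of 7 lower and 0 higher as deposited (median -1.01), and 0 lower and 1 higher with the trend removed (median -0.17). Dicer, Argonaute and RDR proteins had 2 of 18 lower as deposited (median -0.71) and 1 with the trend removed (median -0.07), which was lower in both.

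Chromatin genes were examined because the mutated proteins belong to a chromatin complex. Chromatin remodelling ATPases had 6 of 29 lower and 0 higher as deposited, and 3 lower and 0 higher with the trend removed (medians -0.97 and -0.27). CHR17, an ISWI-type remodeller, had 830.4 and 543 in hdip1/2/3, against 2050.2 and 1306 in wild type, and was called in both fits (-1.28, and -0.72 with the trend removed). CHR4, with a transcript of 7892 nt, had 1371 and 995 in hdip1/2/3, against 3639 and 2279 in wild type, and was called only as deposited (-1.30 and -0.21). The maintenance DNA methyltransferase gene MET1 had 1141 and 945 in hdip1/2/3, against 2151 and 1864 in wild type, with -0.95 and -0.17 in the 2 fits. EMF1, a Polycomb-associated repressor, had 423 and 282 in hdip1/2/3, against 1009 and 632 in wild type, and was called in both (-1.21 and -0.54). None of 17 subunits of histone deacetylase complexes was called as deposited (3 higher with the trend removed), and none of 11 histone acetyltransferases was called in either fit. With the trend removed, HDIP1, HDIP2 and HDIP3 were called higher, at 0.71, 0.82 and 0.61. The subunit list holds HDIP2 itself, whose log2 fold change of 0.37 was the largest on the list as deposited. HDIP2 was thus among the 3 higher calls of that list with the trend removed. The other calls of the list are not named here, so no rise in other subunits is read from them.

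Flowering time genes had 3 of 25 members higher and 1 lower (5 and 3 with the trend removed). The floral repressor genes MAF5 and MAF4, near copies of each other, were higher. MAF5 had 98.5 and 54.7 in hdip1/2/3, against 10.1 and 6.08 in wild type, and MAF4 had 63.1 and 78.9 in hdip1/2/3, against 10.1 and 25.3 in wild type. TEM1, a repressor of FT, had 2541 and 2148 in hdip1/2/3, against 717 and 925 in wild type (1.52 ± 0.16, limma adjusted P = 0.00551), and TSF was the lower one. In the circadian clock list 0 of 18 members were higher and 2 lower as deposited (3 and 2 with the trend removed), the lower ones being PRR3 and AT5G64170. AT5G64170 had 4511 and 3625 in hdip1/2/3, against 7610.2 and 5854 in wild type.

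Among lists of short transcripts, the 57 nuclear photosynthesis members had a median log2 fold change of 0.46 as deposited and 0.23 with the trend removed, and 0 were called as deposited (1 higher with the trend removed). RBCS1A, a small subunit of Rubisco, had 860707 and 1054710.0 in hdip1/2/3, against 621775 and 819727 in wild type, which did not overlap and was not called (limma adjusted P = 0.511). Nuclear ribosomal protein genes had a median of 0.24 as deposited and -0.03 with the trend removed, with 4 of 278 higher and 0 lower as deposited, and 5 higher and 9 lower with the trend removed.

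The numbers of called members were also given by gene structure, level, position and RNA type. Among 3234 members with 1 exon, 9.80% were higher and 1.61% lower, and among 16603 members with more exons 4.26% were higher and 3.63% lower. With the trend removed these shares were 12.7% and 3.49% with 1 exon, and 7.40% and 4.88% with more. In 5 classes by wild-type level, from low to high, 284, 228, 221, 170 and 121 members were higher, and 42, 85, 108, 131 and 289 were lower. The same classes held 305, 332, 364, 349 and 291 higher and 86, 146, 196, 199 and 296 lower members with the trend removed. The fall of the higher calls with level was therefore seen as deposited only. Wild-type level enters both the member rule and the fold change, so these counts are a description. By chromosome, between 4.56% and 5.48% of members were higher and between 3.03% and 3.53% lower. Among 34 microRNA precursor genes 1 was called higher, and among 207 long noncoding RNAs 9 were higher and 2 lower.

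The annotation's own groups were counted as well, with their names as RefSeq gives them and with no test. There were 82 terms with at least 30 members, and only some of them are given. Of the 9081 members with a term, 5.04% were higher and 4.18% lower (9.12% and 4.93% with the trend removed). Of 52 members with the term response to chitin, 12 were higher and 0 lower as deposited (15 and 0 with the trend removed). Chitin is a fungal wall component that triggers immunity, and the 12 were higher in both fits. The broader immune terms differed from it. Defense response had 8 of 251 members higher (3.19%) and 7 lower, or 28 and 10 with the trend removed. Innate immune response had 1 of 82 higher and 3 lower (8 and 1 with the trend removed). Calcium-binding EF-hand proteins, which include calcium sensors, had 7 of 29 higher and 0 lower (8 and 0 with the trend removed), NAC transcription factors had 9 of 53 higher and 1 lower in either fit, and proteins with an AP2/ERF-type (integrase-type) DNA-binding domain had 11 of 48 higher and 1 lower (12 and 2 with the trend removed). Aspartyl proteases had 8 of 48 higher and 0 lower (13 and 2 with the trend removed). Of 46 members with the term microtubule-based movement 1 was higher and 11 were lower (2 and 15 with the trend removed), and 10 of the 11 were lower in both fits. Of 182 members with the term embryo development ending in seed dormancy, 2 were higher and 26 lower (5 and 13 with the trend removed). Lower in both fits were 8. Cytochromes P450 had 16 of 134 higher and 5 lower (23 and 5 with the trend removed), and ABC transporters had 2 of 100 higher and 8 lower as deposited and 8 higher and 5 lower with the trend removed.

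The hda19 libraries were read side by side, with the reservation that both mutants share the wild-type libraries. The median hda19 log2 fold change was 0.87 over the members higher in hdip1/2/3 and -0.42 over those lower, and -0.55 over those lower in both fits. PR1 had hda19 values of 9929.5 and 11541, PYL5 of 884 and 938, and YUC8 of 79.2 and 94.4. POK2 had 355 and 619.6, SS4 had 1682 and 1963, and WSD1 had 136 and 54.5 adjusted counts in hda19. The trend with length was -0.35 per doubling in hdip1/2/3 and -0.01 in hda19, both against wild type. When the mutants were compared directly, hdip1/2/3 minus hda19, 0 of 23685 genes had an adjusted P value under 0.05 by limma-trend (0% called, with 5187 genes at an unadjusted P value under 0.05 and a lowest adjusted P of 0.188), which does not show that the mutants were alike.

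The limit of a mean of 10 admitted 383 members through hdip1/2/3 alone, of which 55 were called higher, and 386 through wild type alone, of which 30 were called lower. Members with a mean of 10 in both genotypes numbered 19068, with 969 higher and 625 lower. Just inside the limit, AT1G05857 had 6.63 and 13.4 adjusted counts in hdip1/2/3, against 2.01 and 0.00279 in wild type, and CSLD1 had 6.63 and 13.4 in hdip1/2/3, against 5.03 and 6.07 in wild type. Just outside it, AT2G47844 had 7.68 and 12.3 in hdip1/2/3, against 4.02 and 2.03 in wild type, and AT3G30305 had 7.68 and 12.3 in hdip1/2/3, against 2.01 and 2.02 in wild type.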

How the data were processed

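RNA of 6 seedling libraries (2 each of hdip1/2/3, hda19 and wild type) was sequenced. Per the methods and submitters' notes, the authors aligned reads with HISAT2 to TAIR10, counted them with featureCounts and called differential genes with edgeR, and whether counting used strand is not given in the sources used here. The methods and the labels name different sequencing platforms and read lengths. The deposited signal values were library-size-adjusted counts made by the authors, which have the form of the pseudo-counts of edgeR, and every one of the 195288 values gave a whole read within 0.05 (195267 within 0.01). Transcript lengths, names and sequences were taken from RefSeq (TAIR10.1).

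Values were analysed as log2(value + 1) with limma-trend (limma 3.58.1, R 4.3.3), with all 6 libraries in 1 fit and genotype as the only term. The 23685 genes whose mean reached 1 in any genotype were tested, Benjamini-Hochberg adjustment ran over all of them, and a call required an adjusted P value under 0.05. Values after ± are standard errors. To remove the length trend, the deviation of each library from the gene mean was smoothed on log2 transcript length (lowess, span 0.3) and subtracted. limma-voom was run on the recovered reads. The scripts were tested on simulated data. Alternatives covered the samples in the fit, call rule, pseudocount, filters, scaling, length, GC content, replicate block and single libraries. Depth is given per library, and intervals and floors (3 reads per library) cover counting error only.

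Members and lists were chosen with earlier results of these data known, and the lists of wax, starch, cytokinesis and ethylene genes, the removal of a bHLH gene (AT1G06150, lower) that shared a synonym with a receptor-like protein, the genes in the plots and the motifs were chosen after values were seen. Named genes were the mutated genes and HDA19, the 10 largest rises and falls that were called without overlap, up to 4 called members of each list by size of change (where none was called, up to 2 by level), the 5 largest falls in the longest and shortest classes and the neighbours of the member limit. Others are said to be named after their values were seen. Of 177 named genes, 32 overlap another gene of the table, so their reads could be shared.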

Additional observations from a re-analysis of the deposited data

How the results depend on the processing

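The counts are given in the order members higher, members lower, lower in the longest class and lower in the shortest class, and stood at 1024, 655, 384 and 22. They were 0, 0, 0 and 0 with hdip1/2/3 and wild type alone in the fit, and likewise ranged from 0 to 0 when any 1 of the 6 libraries was left out, although 3413 members were higher and 3510 lower at an unadjusted P value under 0.05 with all libraries and 2540 and 2246 in the fit of hdip1/2/3 and wild type alone. The fits without a library or without hda19 have fewer residual degrees of freedom. The counts were 615, 257, 137 and 19 when a log2 fold change beyond 1 was also required, 750, 376, 196 and 15 with a pseudocount of 0.1, 18, 9, 2 and 1 with no filter on low values, 1544, 1362, 863 and 34 in a fit of the members only, and 1250, 995, 595 and 37 after quantile normalization. With the rule of the study on the limma P values they were 1011, 798, 396 and 84. The cause of these shifts was not tested. With limma-voom they were 1199, 942, 586 and 30. Median-of-ratios scaling gave 1039, 680, 404 and 22, and a member limit of 50 gave 973, 626, 365 and 16.

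With the length trend removed the counts were 1641, 923, 198 and 152, and with the trends on length and GC content removed 1528, 910, 178 and 166. The following fits with the length trend removed were added after the data had been seen. With hdip1/2/3 and wild type alone they were 371, 111, 7 and 29. They were 554, 275, 66 and 36 without hdip1/2/3 replicate 1, 361, 94, 9 and 17 without hdip1/2/3 replicate 2, 366, 106, 8 and 27 without hda19 replicate 1, 393, 118, 8 and 30 without hda19 replicate 2, 111, 13, 0 and 5 without wild type replicate 1, and 573, 166, 23 and 32 without wild type replicate 2. The slope on length ranged between -0.45 and -0.24 when 1 library was left out, and was -0.41 for members with a mean of at least 50, -0.31 with coding length and -0.30 with gene-body length.

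Replicate numbers did not pair the libraries by a stated batch, and the differences between replicates correlated over genes at 0.33 for hdip1/2/3 with wild type and at -0.18 for either of them with hda19. With the replicate block the counts were 1105, 952, 617 and 31. Of 175 named members 147 were called, 142 of these kept their sign under every alternative and 131 were called with the length trend removed. The called members that turned were GSL8, GSL1, NUP155, KAK and MET1. With the length trend removed, with length and GC removed, and with the length trend removed in the fit of hdip1/2/3 and wild type alone, the log2 fold change was 0.0052, 0.044 and 0.0068 for GSL8, 0.12, 0.16 and 0.12 for GSL1, 0.16, 0.18 and 0.16 for NUP155 and 0.33, 0.35 and 0.33 for KAK. With the trend removed and a library left out, GSL8 had 0.075 (without wild type replicate 2), 0.0058 and 0.0053 (without an hda19 library) and 0.10 (without hdip1/2/3 replicate 1). In the same fits GSL1 had 0.25, 0.12, 0.12 and 0.37, NUP155 had 0.29, 0.16, 0.16 and 0.34, and 0.019 without wild type replicate 1, and KAK had 0.52, 0.33, 0.33 and 0.64, 0.14 without wild type replicate 1 and 0.014 without hdip1/2/3 replicate 2. MET1 had 0.0012 with the trend removed and without wild type replicate 2. RBOHD, which was not called as deposited, had 0.49 with length and GC removed.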
